A study of Caenorhabditis elegans with 6 samples.

Results

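The comparison set newly hatched larvae of the nematode Caenorhabditis elegans that lacked the fatty acid elongase gene elo-5 against larvae of the wild-type strain N2, both from mothers given the fatty acid C13ISO. The 2 elo-5 C13ISO arrays and the 2 N2 C13ISO arrays, 4 of the 6 arrays in the series, were chosen by the genotype and supplement in their labels. All probe sets entered the comparison. Strains were elo-5(gk208) and N2, and only this genotype differed. Both strains spent a first generation on OP50 bacteria with 1 mM C17ISO, given in DMSO, and a second on OP50 with 1 mM C13ISO at 20 °C. Eggs bleached from those adults were left on plates without bacteria for 24 h, and total RNA was taken from whole L1 larvae, the first larval stage. All larvae compared were therefore unfed, and any RNA carried over from the mother was not told apart from their own. The elo-5 larvae from C13ISO-fed mothers are called deficient larvae below, as their labels describe them. The remaining 2 arrays, elo-5 larvae from mothers given C17ISO, are shown as levels beside some genes. The mutant was a single allele, and N2 larvae on C17ISO were not analysed here. The arrays of a group were biological replicates per the series design.

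C13ISO and C17ISO are saturated chains that end in a methyl fork. Worms build the longer C17ISO from branched amino acid breakdown products through elongation, in which ELO-5 acts, and use it in membranes and as the branched base of their sphingolipids. Larvae that hatch without food stop in L1, and larvae short of C17ISO are known to stop at the same stage even with food. The question was which transcripts differed when only the mutation in the synthesis pathway separated the larvae.

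The 2 replicate arrays had Spearman correlations of 0.984 among deficient larvae and 0.989 among N2, against 0.926 to 0.943 between the groups. The median probe set differed 1.16-fold between the deficient replicates and 1.1-fold between the N2 replicates. Values are the deposited intensities of a probe set, a group of probes for 1 transcript, on a linear scale. Folds and standard errors (SE) were computed from log2(value + 16), so changes of dim probe sets are understated. A probe set was called higher or lower where its adjusted p in limma, a linear model fitted across all probe sets, was under 0.05.

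The elo-5 probe set itself read 217 and 144 on the deficient arrays and 1170 and 1608 on the N2 arrays. It was 7.18-fold lower in the deficient larvae (log2 -2.84, SE 0.22, limma adjusted p = 5.03e-06), and the groups did not overlap. The elo-5 larvae given C17ISO read 146 and 178, as low as the deficient larvae. The probe set was thus low on the elo-5 arrays with either supplement. Its position relative to the gk208 deletion was not given, and whether missing sequence or less transcript lay behind the low level was not tested. The related elongase elo-6 of the same pathway read 1011 and 1009 against 2262 and 2107. It was 2.14-fold lower (log2 -1.1, SE 0.15, limma adjusted p = 0.000169), while the elo-5 larvae given C17ISO read 2308 and 1708, beside N2.

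Differences reached across the whole array. Of 15783 probe sets tested, 6927 were called (43.9%), 3699 higher in the deficient larvae (23.4%) and 3228 lower (20.5%). The 2 groups had arrays without overlap at 72.8% of the probe sets tested. At least 2-fold differences were called at 2989 probe sets (18.9%), 1709 higher (10.8%) and 1280 lower (8.11%). Further out the lower calls outnumbered the higher ones, with 438 against 377 at 4-fold and 142 against 60 at 8-fold, and at 16-fold 8 were lower and 12 higher. In genes, 3155 had a probe set called higher and 2709 had one called lower. Of all calls, 53.4% were higher on the deposited scale, 51.2% once arrays were quantile-normalized and 38.7% with the arrays set to 1 median, called medians aligned below, which moved the median log2 difference over everything tested from 0.02 to -0.01 and -0.14. Small shifts of a group of genes are to be read against that. Leaving out N2 replicate 2 lowered the count of higher calls to 2362.

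**Figure D1:**
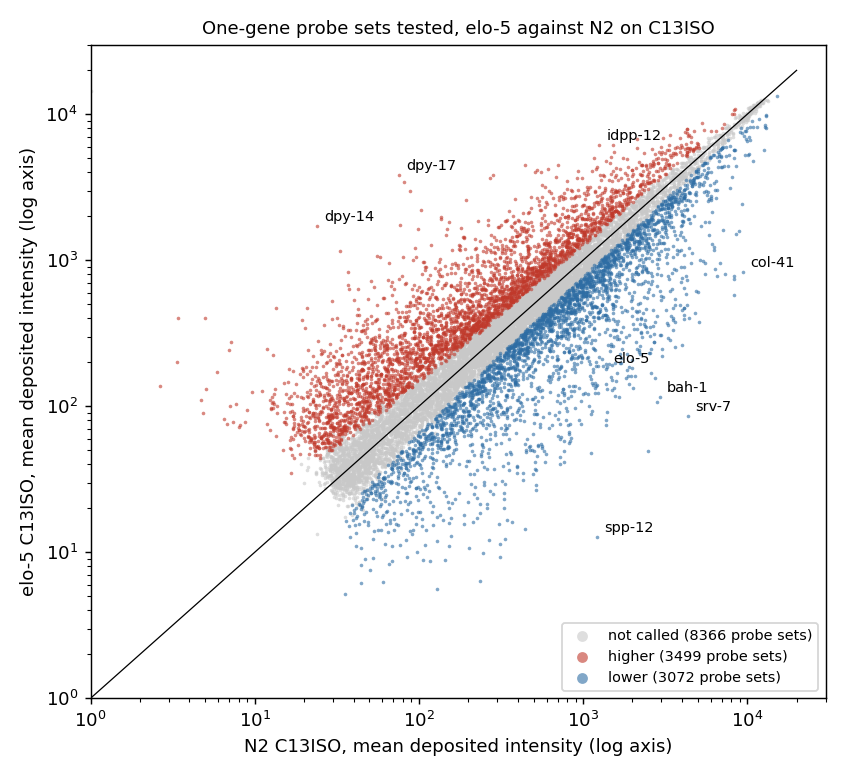
Mean deposited intensity in N2 C13ISO (x axis, log scale) against elo-5 C13ISO (y axis, log scale), 1 point per tested probe set with 1 gene name, red where called higher, blue where called lower and grey where not called. The labelled elo-5, srv-7, spp-12 and bah-1 lie far below the line of equal intensity and dpy-14 and dpy-17 far above it.

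The 15 largest rises began with 2 cuticle collagens at the offset of 16. With an offset of 1 the dim mex-5 and spp-27 probe sets came above them, and with an offset of 64 Y37H2A.14 and Y47H10A.5 came above dpy-14. The collagen gene dpy-14, whose mutants are short and fat, read 1241 and 2185 on the deficient arrays and 28.4 and 19.6 on the N2 arrays, a 41.9-fold rise (SE 0.28, limma adjusted p = 3.38e-07). The collagen gene dpy-17 read 2532 and 5140 against 81.0 and 70.3, a 39.6-fold rise (SE 0.28). In both genes every deficient array stood far above every N2 array, and the deficient replicates themselves differed by less than that gap. Y37H2A.14 followed with 3555 and 3277 against 71.3 and 91.2 (35.5-fold), and Y47H10A.5 with 3164 and 2807 against 114 and 62.7 (29.6-fold). The claudin-like genes clc-12 and clc-11, whose relatives in other animals form seals between epithelial cells, rose 22.8-fold and 15-fold. clc-12 read 1500 and 810 against 33.3 and 32.7. The Rab GTPase gene rab-11.2 read 2174 and 1338 against 88.7 and 65.2 (18.7-fold). B0024.4 rose 18.3-fold, F22E5.6 16-fold, Y41D4B.17 15.9-fold, T22F3.11 14.2-fold, mtre-1 14.1-fold and the collagen gene col-165 12.9-fold.

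Of the 15 rises 3 rested on N2 values below the offset. The saposin-like gene spp-27 read 482 and 322 against 8.89 and 1.00, and a dim probe set of mex-5, a zinc finger gene of early embryo polarity, read 230 and 572 against 5.63 and 1.16. Their folds of 19.9 and 19.8 became 6.67 and 6.43 with an offset of 64 before the logarithm and 88.8 and 96.2 with an offset of 1. F22E5.6 read 583 and 363 against 14.8 and 12.32, and its fold became 6.78 and 31.8. The groups did not overlap in any of the 3. The brighter mex-5 probe set read 981 and 1358 against 200 and 158, a 6.04-fold rise. Across the 30 largest rises and falls an offset of 64 lowered the fold by over 1.5 times for 13 and an offset of 1 raised it by over 1.5 times for 6, and all 30 kept their call and direction under both.

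The largest fall at the offset of 16, close before the next, was in srv-7, a chemosensory-type receptor gene, which read 89.0 and 82.4 on the deficient arrays and 4439 and 4273 on the N2 arrays (43-fold, SE 0.15, limma adjusted p = 3.12e-08). Its level in the elo-5 larvae given C17ISO was also low, at 46.8 and 43.3, so srv-7 was low on all 4 elo-5 arrays. The saposin-like gene spp-12 read 11.1 and 14.2 against 1053 and 1364 (42.5-fold, SE 0.18), or 88.5-fold with an offset of 1, where srv-7 fell 50.3-fold, and here the elo-5 larvae given C17ISO read 801 and 670. ZK180.6 read 92.2 and 122 against 2911 and 2770 (23.3-fold). The gene bah-1, whose loss keeps bacterial biofilms from forming on the head, read 137 and 94.9 against 2759 and 3091 (22.6-fold). Other large falls were C04F1.1 (18.2-fold), T06G6.6 (16.3-fold), wrt-4, related to hedgehog, (15.4-fold), oac-24 (15.1-fold), irg-5, a gene induced by infection, (14.9-fold), the furrow collagen gene dpy-8 (14.4-fold), ZK180.5 (14.2-fold), Y64H9A.2 (14-fold), the C-type lectin gene clec-52 (13.8-fold), the furrow collagen gene dpy-9 (13.7-fold) and H23N18.5 (13.5-fold). Across all probe sets the elo-5 C17ISO arrays had Spearman correlations of 0.981 to 0.982 with N2 and 0.927 to 0.939 with the deficient arrays. Their closeness to N2 was thus not particular to these genes, which were chosen by the gap between deficient larvae and N2. The mean of the elo-5 larvae given C17ISO lay nearer N2 than the deficient larvae for 15 of the 15 rises and 13 of the 15 falls. The 2 exceptions were srv-7 and clec-52, the latter at 96.6 and 95.9 beside 51 and 31.7 in the deficient larvae and 860 and 677 in N2.

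**Figure D2:**
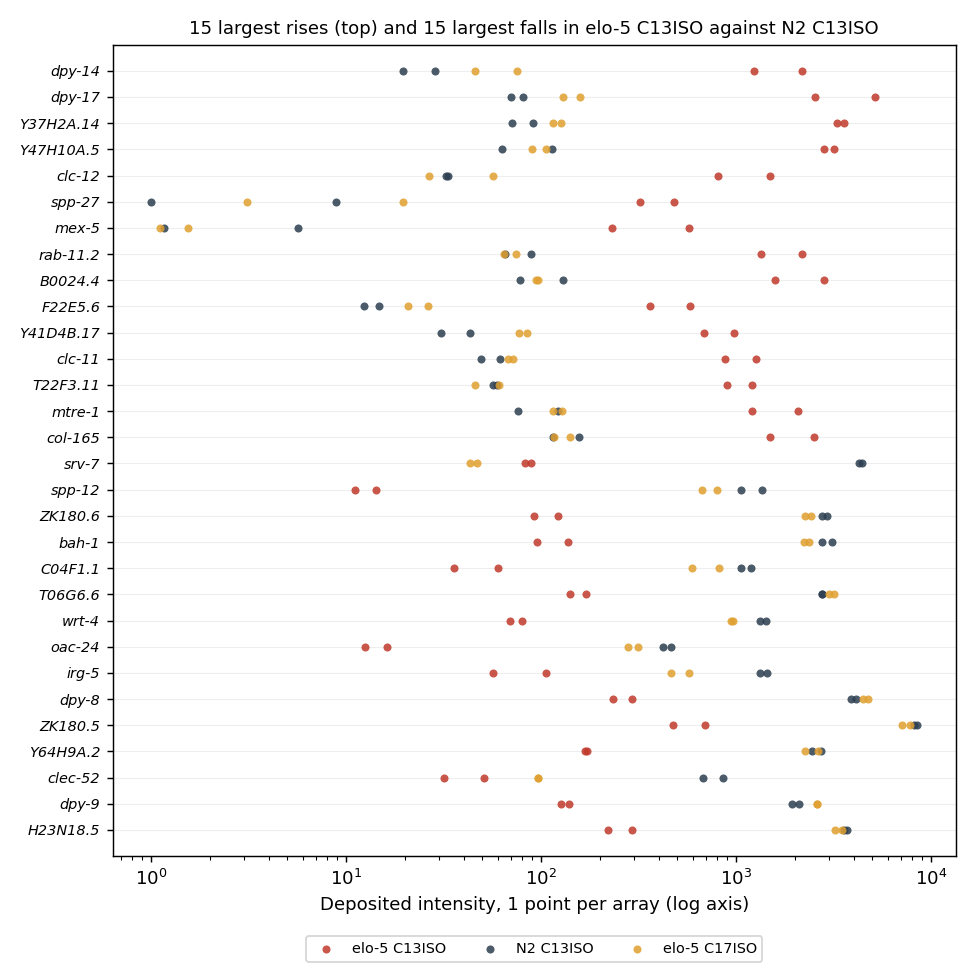
Deposited intensity on each of the 6 arrays (x axis, log scale) for the 15 largest rises and 15 largest falls (rows), with 1 point per array, red for elo-5 C13ISO, dark for N2 C13ISO and yellow for elo-5 C17ISO. The red points stand apart from the dark ones in every row, and the yellow points lie with the red ones for srv-7.

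By the difference in intensity rather than by fold, 4 of the 8 largest falls were collagen genes. The collagen gene col-41 read 864 and 788 on the deficient arrays and 9218 and 9586 on the N2 arrays (11.2-fold), dpy-5 805 and 689 against 8104 and 8541 (11-fold), and rol-6 819 and 732 against 8232 and 8420 (10.6-fold). The collagen gene rol-8 fell 5.59-fold and the fatty acid and retinol binding protein gene far-3 5.66-fold, from 8862 and 8335 to 1521 and 1491. ZK180.5, C02E7.6 (3.90-fold) and F41F3.3 (2.24-fold) completed these 8 falls. Among the 8 rises, idpp-12 went from 1456 and 1057 in N2 to 5846 and 6411 (4.88-fold), the small heat shock protein gene hsp-17 from 1667 and 1360 to 6623 and 5627 (4.02-fold), and the cytochrome P450 gene cyp-13A5 from 2604 and 1681 to 6582 and 6900 (3.20-fold). The others were K11H12.4 (9.93-fold), the tetraspanin gene tsp-2 (6.32-fold), W08E12.2 (4.32-fold), the claudin-like gene clc-19 (3.55-fold) and C53B7.3 (2.24-fold). For these genes too every deficient array lay on 1 side of every N2 array, which was part of the rule that chose them.

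Lists of genes with a shared role were then read, each gene standing for its brightest probe set. Against this measure 12055 genes were tested, of which 25.1% rose and 20.4% fell (45.5% called), with a median log2 difference of 0.04 and arrays that did not overlap at 74.1%. Where a list is counted with no filter on low values, the share to set beside it is that of all 17118 genes with no filter, of which 18% rose and 14% fell.

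**Figure D3:**
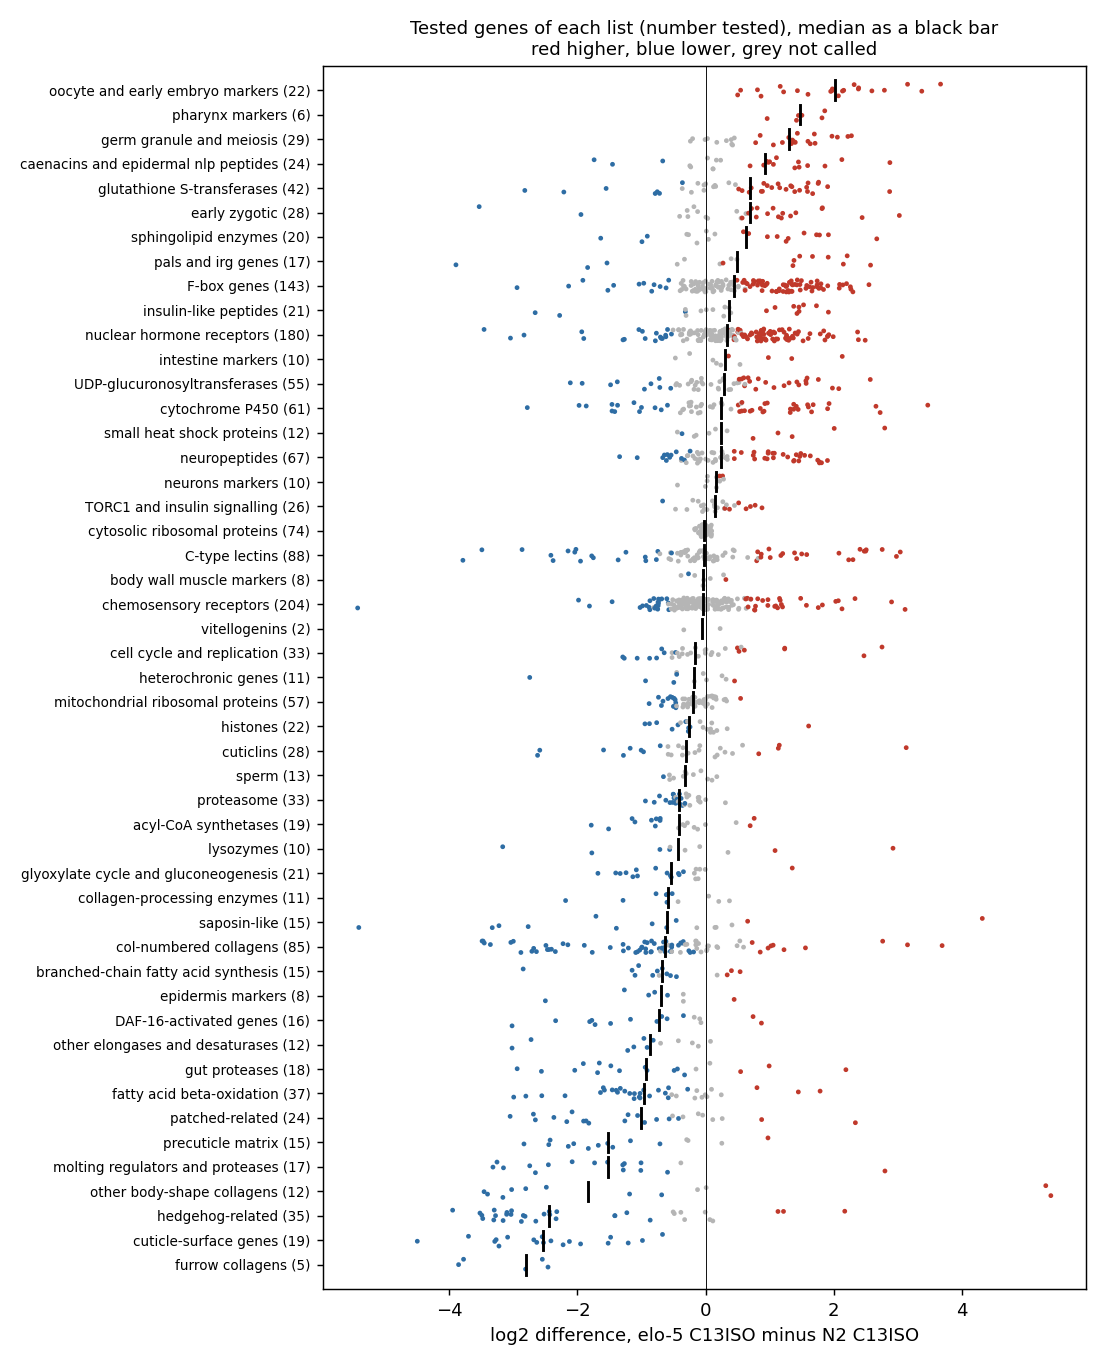
Log2 difference between elo-5 C13ISO and N2 C13ISO (x axis) for the tested genes of each list (rows, number tested in brackets), red where called higher, blue where called lower, grey where not called, with the median of the list as a black bar. Furrow collagens, cuticle-surface and hedgehog-related genes lie furthest to the left, and oocyte and early embryo markers and pharynx markers furthest to the right.

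Transcripts of branched-chain fatty acid synthesis genes mostly fell, in a list that holds the mutated gene elo-5 itself. All 15 genes of the list were tested, 10 fell and 3 rose, with a median log2 difference of -0.67. Beside elo-5 and elo-6, acs-1, an acyl-CoA synthetase needed for branched fatty acids, read 179 and 210 against 435 and 462 (2.21-fold lower). The ketoacyl reductase gene let-767 read 1179 and 1387 against 2576 and 2730 (2.06-fold lower), and hpo-8, a hydroxyacyl-CoA dehydratase gene of the elongation cycle, 1701 and 1689 against 2988 and 3038 (1.77-fold lower). The groups did not overlap in any of these. The 3 genes that rose, each less, were the lipid synthesis regulator sbp-1 (log2 0.54), the branched-chain aminotransferase gene bcat-1 (log2 0.40) and the fatty acid synthase gene fasn-1 (log2 0.34). They numbered 1 without N2 replicate 1, 0 without N2 replicate 2, and 1 without deficient replicate 2, and with medians aligned none of the list was called higher.

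Of the other elongases and desaturases, which make straight and unsaturated chains, 12 of 13 were tested, 7 fell and none was called higher (median -0.86). The desaturase gene fat-5 read 30.7 and 39.2 against 391 and 399 (8.10-fold lower, SE 0.17, limma adjusted p = 4.49e-07), and the elongase gene elo-4 284 and 425 against 2329 and 2438 (6.60-fold lower). The desaturase genes of the polyunsaturated route fat-1, fat-4 and fat-3 fell 2.32-fold, 1.88-fold and 1.76-fold, and the elongase gene elo-1 fell 1.95-fold. Of the fat-5 relatives, fat-7 fell 2.17-fold from a low level, reading 31.7 and 20.3 against 78.3 and 70.5, and fat-6 read 650 and 570 against 815 and 829 (log2 -0.42, 95% interval -0.78 to -0.07), with an adjusted p of 0.0546 in limma and no overlap. The desaturase gene fat-2 (log2 -0.11) and the elongase gene elo-2 (log2 0.08 as deposited and -0.08 with medians aligned) were not called.

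Transcripts of fatty acid breakdown genes moved the same way. Of 39 beta-oxidation genes 37 were tested, 25 fell and 3 rose, with a median of -0.96. The acyl-CoA dehydrogenase gene acdh-6 read 122 and 151 against 1214 and 1174 (7.96-fold lower), the carnitine palmitoyltransferase gene cpt-5 56.3 and 44.6 against 517 and 384 (6.98-fold lower), and the enoyl-CoA hydratase gene ech-4 831 and 629 against 4385 and 4268 (5.87-fold lower). The thiolase gene acaa-2 fell 4.57-fold. The 3 that rose were ech-9 (3.45-fold), cpt-3 (log2 1.45) and the acyl-CoA oxidase gene acox-1.5 (log2 0.80). Of 23 acyl-CoA synthetases, which activate fatty acids for use, 19 were tested, 9 fell and 2 rose (median -0.42). acs-20 fell 3.44-fold, acs-2 2.85-fold, acs-14 2.14-fold and acs-13 1.79-fold, while acs-4 (log2 0.76) and acs-25 (log2 0.70) rose, 1 fewer without N2 replicate 2 or without deficient replicate 1.

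Glyoxylate cycle, glycolysis and gluconeogenesis genes showed 14 falls and 1 rise among 21 tested of 23 (median -0.53). The falls included the gluconeogenic enzymes fbp-1, which read 1366 and 983 against 3775 and 3713 (3.20-fold), pyc-1 (2.64-fold) and pck-1 (2.36-fold), and the malate dehydrogenase gene mdh-1 (2.52-fold). The hexokinase gene hxk-1, which commits glucose to use, was the 1 that rose, from 993 and 831 to 1971 and 2792 (2.55-fold). For each fall named here both deficient arrays lay below both N2 arrays.

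Transcripts of sphingolipid enzymes, which build or break down the lipids that carry the branched base, mostly moved up. Of 22 genes 20 were tested, 11 rose and 3 fell (median 0.63). The ceramide synthase gene lagr-1 read 881 and 1645 against 185 and 166 (6.37-fold, SE 0.25, limma adjusted p = 1.57e-05) and the dihydroceramide desaturase gene ttm-5 1463 and 1835 against 419 and 424 (3.78-fold). The ceramidase gene asah-2 rose 3.43-fold and the sphingomyelin synthase gene sms-5 3.32-fold. The 3 that fell were the ceramidase gene asah-1, at 277 and 192 against 611 and 917 (3.11-fold), the sphingomyelinase gene asm-2 (log2 -0.99) and the ceramide synthase gene hyl-2 (log2 -0.91).

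Of 27 genes of TORC1 and insulin signalling, which pass nutrient state to growth, 26 were tested, 7 rose and 1 fell, close to or below the shares over all genes. The median was 0.15 as deposited and turned to -0.01 with medians aligned. The AMP-activated kinase gene aak-1 read 310 and 220 against 153 and 118 (1.84-fold higher), the S6 kinase gene rsks-1 347 and 298 against 175 and 188 (1.71-fold higher), and raga-1, a TORC1 activator, 525 and 365 against 707 and 703 (1.59-fold lower). sgk-1 rose 1.63-fold. The 7 rises numbered 2 without N2 replicate 1, 1 without N2 replicate 2 and 3 without deficient replicate 2, and the fall numbered 0 in each of these and 2 without deficient replicate 1. Among 17 genes known as activated by the insulin pathway's transcription factor DAF-16, 16 were tested, 11 fell and 2 rose (median -0.72). dod-3 read 1145 and 875 against 5071 and 5180 (5.06-fold lower), dao-3 fell 3.50-fold and the catalase gene ctl-2 3.30-fold. The 2 rises were dod-6 (log2 0.87) and the heat shock gene hsp-12.6 (1.67-fold), and 1 remained without either N2 array or without deficient replicate 1.

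The cuticle, the collagen coat that the epidermis lays down anew at each moult, had the list with the lowest median log2 difference of the 49, while the largest falls of single genes were those of srv-7 and spp-12. Furrow collagens mark the circumferential grooves of the cuticle, and all 5 on the array fell (median -2.81). Beside dpy-8, at 294 and 232 against 3883 and 4099, and dpy-9, at 139 and 126 against 1925 and 2107, dpy-3 read 334 and 428 against 2805 and 2674 (7.0-fold). dpy-2 fell 5.84-fold and dpy-7 5.49-fold. Each deficient array lay below each N2 array in all 5, and the elo-5 larvae given C17ISO lay with N2 or above it.

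The other body-shape collagens split. Of 13 genes 12 were tested, 8 fell and 2 rose, the 2 being dpy-14 and dpy-17 described above. sqt-1 read 800 and 805 against 7630 and 6992 (8.94-fold lower), lon-3 149 and 117 against 1162 and 1216 (8.14-fold lower) and sqt-2 999 and 930 against 6871 and 6786 (6.99-fold lower). The falls of dpy-4 (2.27-fold) and dpy-13 (1.61-fold) were smaller, both from bright probe sets, which read 10667 and 11056 in N2 for dpy-4 and 13076 and 13006 for dpy-13. sqt-3 (log2 -0.12, adjusted p = 0.132 in limma) and bli-1 (log2 0.01, and -0.09 or -0.15 under the other scalings) were not called. The probe sets of dpy-4, dpy-13 and sqt-3 are of a type whose probes may also bind other sequences. The part of related collagens in their values was not tested. Probe sets of the same type also stood for C02E7.6, F41F3.3 and idpp-12 above and for some genes of the lists below. Within 1 family of structural proteins the differences thus ran from log2 -3.45 to 5.39.

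**Figure D4:**
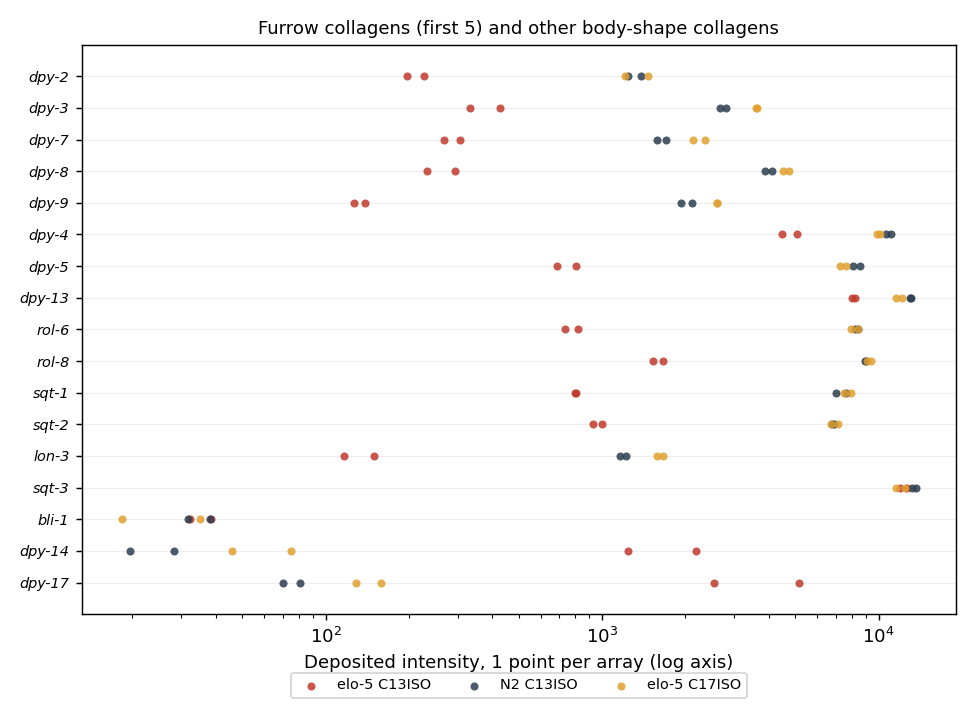
Deposited intensity on each array (x axis, log scale) for the furrow collagens (first 5 rows) and the other body-shape collagens tested (remaining rows), 1 point per array, red for elo-5 C13ISO, dark for N2 C13ISO and yellow for elo-5 C17ISO. Red points lie to the left of the dark ones for dpy-8, dpy-5 and their neighbours and to the right for dpy-14 and dpy-17.

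Of 128 collagens with a col number 85 passed the filter on low values. With no filter 54 of the 128 fell and 13 rose (median -0.35). col-41 headed the falls, followed by col-172, at 172 and 152 against 1894 and 2016 (11.1-fold), col-156 (10.9-fold) and col-149 (10.2-fold). col-165 rose most, from 157 and 115 to 1485 and 2501. Of 11 enzymes that modify and cross-link collagen 7 fell and none was called higher as deposited (median -0.58). The prolyl hydroxylase subunit gene phy-2 read 358 and 304 against 1490 and 1623 (4.54-fold lower), and its partner dpy-18 fell 1.53-fold. The protease inhibitor gene bli-5 fell 2.44-fold, the peroxidase maturation gene doxa-1 1.71-fold, the procollagen protease genes dpy-31 and bli-4 1.52-fold and 1.5-fold, and pdi-2 1.43-fold. bli-3 (log2 -0.43), phy-3 (log2 0.05), tsp-15 (log2 0.21) and mlt-7 (log2 0.37) were not called.

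Cuticlins, non-collagen cuticle proteins, gave 9 falls and 4 rises among 34 genes with no filter, of which 28 passed it. cut-4 fell 6.15-fold, cutl-18 6.0-fold, cutl-29 3.01-fold and cutl-3 2.43-fold. cut-3 rose 8.76-fold, from 158 and 137 to 1009 and 1971, beside cutl-10 (log2 1.15), cutl-14 (log2 1.14) and cutl-24 (log2 0.83), and the rises numbered 7 without deficient replicate 1. The precuticle, a temporary matrix that shapes the new cuticle, had 11 falls and 1 rise among 15 genes (median -1.53). sym-1 read 145 and 143 against 1258 and 1002 (7.12-fold lower), noah-2 537 and 701 against 3409 and 3412 (5.45-fold lower), and mlt-11 486 and 637 against 3296 and 2833 (5.37-fold lower). dpy-6 fell 4.41-fold and the lipocalin-related gene lpr-1 4.16-fold. egg-6 rose (log2 0.97), a call lost without either N2 array and without deficient replicate 2.

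Moulting regulators and proteases fell as widely, with 15 falls and 1 rise among 17 genes (median -1.53). mlt-10 read 89.9 and 71.8 against 899 and 992 (9.96-fold lower), the hedgehog-related gene qua-1 197 and 173 against 2085 and 1726 (9.53-fold lower), and nas-37, a metalloprotease of cuticle shedding, 21.1 and 24.9 against 293 and 371 (8.89-fold lower). lin-42, the worm relative of the clock gene period whose transcript cycles with the moults, read 464 and 361 against 2950 and 2711 (6.69-fold lower). The metalloprotease gene nas-6 was the 1 that rose, from 154 and 225 to 1171 and 1655 (6.96-fold). Among 12 heterochronic genes, which time the larval stages, 11 were tested, and lin-42, lin-29 (1.91-fold), lin-41 (1.41-fold) and daf-12 (1.37-fold) fell while lin-28 rose 1.37-fold. Those 4 falls numbered 2 without either N2 array and 2 without deficient replicate 2, and the lin-28 call was lost without each of these arrays and with medians aligned.

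Hedgehog-related proteins are secreted by the epidermis, and many of their genes cycle with the moults. Of 53 genes 35 passed the filter, and with no filter 27 of the 53 fell and 3 rose (median -0.66). Beside wrt-4, at 79.5 and 69.0 against 1329 and 1416, grd-2 read 64.7 and 51.2 against 842 and 814 (11.5-fold lower) and grd-5 304 and 268 against 3300 and 3432 (11.2-fold lower). wrt-6 fell 11.1-fold and grl-2 9.87-fold. The 3 that rose were grl-11 (log2 2.17), grl-6 (log2 1.22) and grl-21 (log2 1.13). Patched-related membrane proteins showed 16 falls and 2 rises among 27 genes with no filter. ptr-18 read 286 and 340 against 2768 and 2625 (8.27-fold lower), ptr-15 fell 6.43-fold, ptr-14 6.29-fold and ptr-4 5.15-fold. ptr-22 rose 5.06-fold, from 91.7 and 76.3 to 509 and 468, and ptr-24 rose less (log2 0.88).

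All 19 cuticle-surface genes, found by mutants whose surface microbes bind differently, were tested and fell (median -2.53), and on the arrays of every one of them the groups did not overlap. After bah-1, the glycosyltransferase gene bus-8B read 190 and 249 against 3010 and 3032 (13-fold), bus-10 fell 9.77-fold, bah-2 9.62-fold and bus-5 9.33-fold. The smallest fall was that of srf-3, a nucleotide sugar transporter gene (log2 -0.67). The count was 18 without N2 replicate 1 and 19 without any of the other 3 arrays.

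Epidermis markers, the defining genes of the tissue that makes the cuticle, moved with these groups. Of 8 markers 5 fell and 1 rose (median -0.69). che-14 read 120 and 126 against 822 and 718 (5.65-fold lower), the moulting receptor genes nhr-23 and nhr-25 fell 2.40-fold and 1.51-fold, and the transcription factor genes elt-1 and lin-26 fell 1.85-fold and 1.73-fold. elt-3 (log2 -0.35) and ajm-1 (log2 -0.35) were not called, and the junction gene dlg-1 rose 1.36-fold, a call lost without each N2 array, without deficient replicate 2 and with medians aligned. The summed level of the 8 was 8675 and 10363 on the deficient arrays and 12002 and 11037 on the N2 arrays, and none of the 8 was near 0. In bulk RNA fewer cells of a type and less RNA per cell cannot be told apart. The part of the epidermis markers in the cuticle results was not tested.

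Defence genes moved in both directions. Of 18 saposin-like genes, antimicrobial proteins of the gut among them, 15 were tested, 9 fell and 2 rose (median -0.61). spp-23 read 16.8 and 14.5 against 252 and 361 (10.03-fold lower), spp-13 274 and 276 against 2708 and 2690 (9.33-fold lower), and spp-1 346 and 285 against 2021 and 2461 (6.80-fold lower). Against these stood spp-27, described above, and spp-8 (log2 0.66), and of these 2 rises 1 was called without N2 replicate 1. Of 16 lysozyme genes 10 were tested, 4 fell and 2 rose. lys-4 read 83.9 and 64.4 against 606 and 1021 (8.96-fold lower), lys-7 fell 3.42-fold, lys-1 1.64-fold and ilys-5 1.47-fold. lys-3 rose 7.59-fold, from 258 and 203 to 1982 and 1718, and ilys-4 2.12-fold. The 4 falls numbered 2 without deficient replicate 2. lys-10 (log2 -0.55), lys-2 (log2 -0.32), lys-8 (log2 -0.09) and lys-6 (log2 0.35) were not called.

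C-type lectin genes, a large family with members induced by infection, gave 23 higher and 23 lower calls among 220 genes with no filter. Of those that passed it, 22 rose and 18 fell as deposited and 22 rose and 26 fell with medians aligned, so that the balance of directions depended on the scaling. As deposited these were 25% and 20.5% of the 88 tested, near the shares over all genes. The counts with no filter lay below the shares of all genes with no filter. clec-82 read 6.64 and 6.02 against 252 and 218 (11.2-fold lower) and clec-230 292 and 356 against 2428 and 2458 (7.27-fold lower). clec-266 rose 8.21-fold, and clec-240 read 185 and 91.0 against 1.00 and 4.33 (7.88-fold higher), so that its N2 values lay at the bottom of the scale.

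Antimicrobial peptides of the epidermis, the caenacins and related nlp genes, were higher for the most part. With no filter 16 of 31 rose and 3 fell (median 0.64). cnc-6 read 921 and 867 against 125 and 92.8 (7.34-fold higher), nlp-26 793 and 572 against 164 and 123 (4.37-fold higher), cnc-1 rose 3.64-fold and nlp-32 3.02-fold. cnc-3 fell 3.33-fold, from 2605 and 2629 to 731 and 818, beside fip-1 (log2 -1.45) and nlp-25 (log2 -0.67). Among 31 pals and irg genes, which respond to intracellular infection and other stress, 10 rose and 3 fell with no filter. irg-8 read 2317 and 2037 against 371 and 332 (5.96-fold higher), irg-2 rose 4.63-fold, pals-33 4.44-fold and irg-1 3.77-fold. The 3 falls were irg-5, irg-4 (log2 -1.84) and irg-3 (log2 -1.54).

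F-box genes, whose products choose proteins for degradation, showed 102 rises and 12 falls among 310 genes with no filter (median 0.25), and 143 passed the filter. fbxa-53 read 654 and 381 against 84.2 and 61.3 (5.86-fold higher), fbxc-51 rose 4.92-fold, fbxc-58 4.82-fold and fbxa-215 4.79-fold. The brightest probe set of fbxc-50 fell 7.67-fold while another of its probe sets was called higher. F-box genes are near-identical in places, and short probes may not tell them apart. Proteasome subunits, which act downstream of such tagging, had 19 falls and no rise among 33 genes (median -0.41). rpt-5 read 667 and 564 against 1140 and 1242 (1.91-fold lower), pbs-2 fell 1.74-fold, pbs-3 1.64-fold, pbs-1 1.54-fold and rpn-3 1.47-fold. The falls were small, and their number dropped to 11 without N2 replicate 1 and 7 without N2 replicate 2.

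Proteases of the gut showed 13 falls and 3 rises among 18 tested of 23 genes (median -0.93, and -0.44 over all 23 with no filter). The aspartic protease gene asp-14 read 578 and 418 against 3917 and 3831 (7.66-fold lower), asp-8 fell 5.90-fold, and the cathepsin B-like genes cpr-1 and cpr-9 fell 4.11-fold and 3.75-fold. cpr-3 rose 4.56-fold, from 444 and 361 to 2116 and 1676, beside asp-17 (log2 0.99) and cpr-4 (log2 0.55), and the 3 rises numbered 1 without N2 replicate 1 or without deficient replicate 1. Of 10 intestine markers 4 rose and none was called lower (median 0.30). The ABC transporter gene pgp-1 read 857 and 1445 against 298 and 195 (4.39-fold higher), the peptide transporter gene pept-1 rose 2.54-fold, the intestinal regulator elt-2 1.97-fold and erm-1 1.28-fold. ges-1 (log2 -0.47), vha-6 (log2 -0.25), elt-7 (log2 0.12 as deposited and -0.04 with medians aligned), ifb-2 (log2 0.17), act-5 (log2 0.24) and inx-16 (log2 0.54) were not called. With medians aligned 3 rose and 2 fell (median 0.14), the rises numbered 3 without either N2 array, and 1 fell without deficient replicate 1. The summed level of the 10 was 15297 and 15177 on the deficient arrays and 12644 and 11863 on the N2 arrays, and its part in the protease values was not tested.

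Detoxification enzymes rose more often than they fell. Of 43 glutathione S-transferase genes 42 were tested, 24 rose and 7 fell (median 0.70). gst-38 read 1431 and 1458 against 232 and 144 (7.32-fold higher), gst-24 rose 3.75-fold and gst-31 3.40-fold, whereas gsto-1 read 44.2 and 28.9 against 313 and 393 (7.06-fold lower) and gst-26 fell 4.63-fold. Of 64 UDP-glucuronosyltransferase genes, which attach sugar acids to foreign compounds, 20 rose and 9 fell with no filter. ugt-9 rose 5.94-fold, ugt-16 4.22-fold and ugt-44 3.95-fold, and ugt-26 and ugt-6 fell 4.31-fold and 3.79-fold. Of 73 cytochrome P450 genes, which oxidise lipids and foreign compounds, 26 rose and 14 fell with no filter. cyp-13A8 read 978 and 1431 against 117 and 72.4 (11.1-fold higher), and its relatives cyp-13A4 and cyp-13A7 rose 6.61-fold and 6.32-fold. cyp-13B1 read 396 and 512 against 3447 and 2946 (6.87-fold lower) and cyp-42A1 fell 3.92-fold.

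All 12 small heat shock protein genes were tested, 5 rose and 1 fell (median 0.25). sip-1 read 3013 and 5029 against 623 and 480 (6.94-fold higher), hsp-17 rose 4.02-fold, hsp-16.20 2.55-fold, hsp-12.2 2.19-fold and hsp-12.6 1.67-fold. The stress reporters hsp-16.2, at 5531 and 4620 against 4687 and 4393, and hsp-16.41, at 4105 and 3418 against 3768 and 3453, were not called, nor were hsp-43 (log2 0.34), hsp-12.1 (log2 -0.44), hsp-12.3 (log2 -0.18) and hsp-16.21 (log2 -0.15). hsp-25 fell 1.29-fold, a call lost without either N2 array.

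Among signalling families, 72 of 254 nuclear hormone receptor genes rose and 19 fell with no filter (median 0.22). nhr-178 read 1778 and 2006 against 474 and 218 (5.62-fold higher) and nhr-30 rose 5.22-fold. nhr-265 read 19.2 and 14.1 against 304 and 381 (11-fold lower), nhr-155 fell 8.24-fold and nhr-114 7.12-fold. Chemosensory receptor genes were mostly too dim to test, with 204 of 1180 passing the filter. With no filter 51 rose and 37 fell, far below the shares of all genes with no filter. The diacetyl receptor gene odr-10 read 495 and 307 against 39.1 and 24 (8.65-fold higher), sri-31 542 and 566 against 62.2 and 58.2 (7.48-fold higher), srr-2 rose 5.04-fold and sri-36 4.37-fold. Among the 204, 28 rose and 23 fell as deposited, and 22 rose and 40 fell with medians aligned, so no balance of directions held across the scalings. As deposited these were 13.7% and 11.3% of the 204, below the shares over all genes. The 23 falls numbered 14 without N2 replicate 1, 12 without N2 replicate 2 and 11 without deficient replicate 2.

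Of 74 neuropeptide genes 67 were tested, 28 rose and 12 fell (median 0.24). nlp-2 read 291 and 197 against 69.4 and 38.8 (3.74-fold higher), flp-32 306 and 214 against 66.0 and 57.3 (3.51-fold higher), and nlp-47, flp-13 and nlp-6 rose 3.43-fold, 3.43-fold and 3.36-fold. The falls numbered 20 with medians aligned and 6 without N2 replicate 1. Of 10 neuron markers, such as the vesicle genes snb-1 and rab-3, none fell and the peptide processing genes egl-21 and egl-3 rose 1.2-fold and 1.16-fold. That share of rises, 20%, lay below the 25.1% over all genes. Those 2 calls numbered 1 without N2 replicate 1 and 0 without N2 replicate 2, without deficient replicate 1, with no filter and with medians aligned. The 10 neuron markers summed to 26588 and 24879 on the deficient arrays and 24511 and 22285 on the N2 arrays, and their part in the neuropeptide values was not tested. Of 24 insulin-like peptide genes 21 were tested, 9 rose and 3 fell. ins-4 read 201 and 298 against 54.6 and 51.8 (3.78-fold higher), ins-6 rose 3.32-fold and ins-3 2.89-fold. ins-33 read 14 and 17.3 against 144 and 233 (6.31-fold lower), ins-35 fell 4.84-fold and ins-18 fell less (log2 -0.31), a call lost without each of the 4 arrays, with no filter and with quantile normalization.

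Genes of the oocyte and early embryo rose together. Of 23 markers 22 were tested and all 22 rose (median log2 2.03), and 20 rose with no filter, with quantile normalization or with medians aligned. oma-2, a zinc finger gene of oocyte maturation, read 508 and 836 on the deficient arrays and 44.9 and 29.4 on the N2 arrays (12.7-fold, SE 0.27, limma adjusted p = 3.14e-06). The polarity gene mex-6 read 458 and 855 against 83.5 and 22.7 (10.4-fold), the eggshell proteoglycan gene cpg-2 584 and 840 against 95.2 and 42.4 (8.89-fold), and oma-1 240 and 452 against 29.3 and 39.4 (6.92-fold). In each of these both deficient arrays stood above both N2 arrays, and deficient replicate 2 was the higher one. The summed level of the 23 was 11334 and 17566 on the deficient arrays, 4262 and 3514 on the N2 arrays and 3723 and 2756 on the arrays of elo-5 larvae given C17ISO. None of the 23 was below 16 on both arrays of either group. The rises numbered 17 without deficient replicate 2 and 18 without N2 replicate 2.

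Germ granule and meiosis genes, active in the germ line, had 19 rises and no fall among 29 tested of 30 (median 1.30). The germ granule gene deps-1 read 147 and 254 against 26.8 and 28 (4.85-fold), the translational repressor gene gld-1 685 and 962 against 210 and 124 (4.66-fold), and gld-3 rose 4.16-fold, the helicase gene glh-4 3.93-fold and syp-2, of the synaptonemal complex, 3.27-fold. The summed level of the 30 was 7894 and 9926 on the deficient arrays and 4808 and 4323 on the N2 arrays. Of 48 genes known from early zygotic transcription, 17 rose and 2 fell with no filter. sdz-35 rose 8.13-fold, from 8.23 and 3.53 to 235 and 109, sdz-28 5.44-fold and sdz-1 3.54-fold, while sdz-24 read 256 and 237 against 3041 and 2990 (11.6-fold lower) and pes-8 fell 3.84-fold. Sperm genes did not follow: of 27 none rose and 1, msp-55, fell 1.58-fold as deposited, a call lost without N2 replicate 2 and without deficient replicate 2, and 5 fell with quantile normalization and 6 with medians aligned. Only 13 of the 27 sperm genes passed the filter. The 27 summed to 1028 and 898 on the deficient arrays and 1079 and 1220 on the N2 arrays. gsp-3 and msp-64 were below 16 on both arrays of each group, so dim signal limits what the sperm genes can show. Of 5 vitellogenin genes, which encode yolk protein made by adults, vit-6 (log2 -0.34) and vit-4 (log2 0.23) were tested and not called in limma, nor was either under an unadjusted p of 0.05. With no filter 1 of the 5 was called higher, vit-1, at 27.4 and 40.6 against 14.4 and 13.6. The part of eggs, embryos or germ cells in these values was not tested.

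Of 35 cell cycle and replication genes 33 were tested, 7 rose and 8 fell, near the shares over all genes. The median was -0.16 as deposited and 0.08 without deficient replicate 1. The B-type cyclin genes cyb-2.2, at 570 and 1226 against 120 and 102 (6.74-fold), and cyb-2.1 (5.55-fold) rose, as did the phosphatase gene cdc-25.1 (2.36-fold). cyb-2.1 read 570 and 1180 against 135 and 135, nearly as cyb-2.2 did, and probes may not tell these cyclin genes apart. In contrast, the G1 cyclin gene cyd-1 read 168 and 181 against 432 and 469 (2.45-fold lower) and cdk-1 346 and 426 against 955 and 938 (2.41-fold lower). The 7 rises numbered 4 without N2 replicate 2. Histone genes showed 10 falls and 1 rise among 22 tested of 26. his-31 fell 1.92-fold, his-64 1.83-fold, his-39 1.70-fold and his-1 1.43-fold, and his-74 rose 3.05-fold. The falls numbered 3 without either N2 array, 4 with quantile normalization and 13 with medians aligned, and core histone copies are near-identical, so that probes may not tell them apart.

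All 6 pharynx markers rose (median 1.48). The pharyngeal myosin gene myo-2 read 3296 and 4868 against 1233 and 1027 (3.52-fold), myo-1 3943 and 4576 against 1679 and 1484 (2.67-fold), and the homeobox gene ceh-22 380 and 428 against 100 and 98.6 (3.63-fold). The troponin genes tni-4 and tnc-2 rose 2.84-fold and 2.73-fold and the organ identity gene pha-4 1.95-fold. The 6 summed to 18184 and 22268 on the deficient arrays, 7429 and 6576 on the N2 arrays and 10957 and 9620 on the arrays of elo-5 larvae given C17ISO, so that the last lay between. Body wall muscle stood apart from this. Of its 8 markers unc-15 rose 1.25-fold and unc-54 fell 1.2-fold, and myo-3 (log2 0.07), unc-22 (log2 0.28), mup-2 (log2 -0.03), pat-10 (log2 -0.04), tni-1 (log2 -0.17) and hlh-1 (log2 -0.38) were not called. The unc-15 call was lost without either N2 array and without deficient replicate 2, the unc-54 call without N2 replicate 1 and without deficient replicate 1, and both with no filter. The median of the 8 was -0.03 as deposited and 0.04 with quantile normalization. The 8 summed to 31265 and 34282 against 33682 and 32978, with overlapping groups. The contractile genes of the pharynx and body wall thus differed in their values, and that difference itself was not tested.

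**Figure D5:**
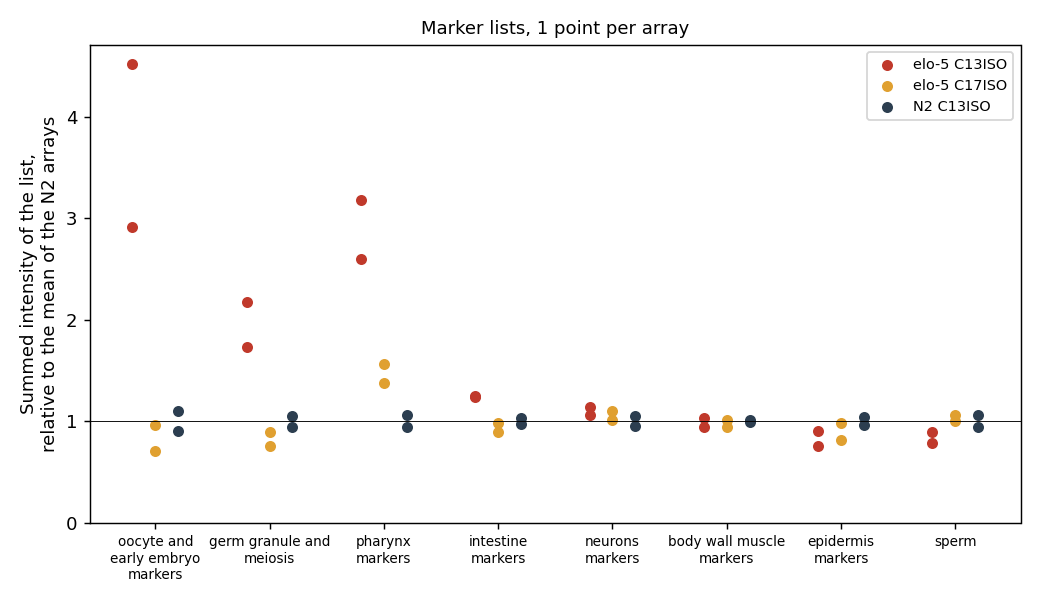
Summed deposited intensity of each marker list divided by its mean over the N2 C13ISO arrays (y axis), 1 point per array, red for elo-5 C13ISO, yellow for elo-5 C17ISO and dark for N2 C13ISO. The red points of oocyte and early embryo, germ granule and pharynx lists lie above the dark ones, and those of body wall muscle lie among them.

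Ribosomal protein genes give a scale for the smallest differences. Of 74 cytosolic ribosomal protein genes tested of 75, 0 were called in limma as deposited and 1 lower had an unadjusted p under 0.05, with a median of -0.02 and a range from -0.17 to 0.10. This rests on the deposited scale, since 2 were called higher with quantile normalization, which gave a median of 0.05, and 47 lower with medians aligned, and 2 were called lower without deficient replicate 1. Of 57 mitochondrial ribosomal protein genes tested of 59, 12 fell and 1 rose (median -0.20), a share of falls near that over all genes. mrpl-19 fell 1.84-fold, and mrps-12, mrpl-12, mrps-23 and mrps-15 fell 1.66-fold, 1.61-fold, 1.58-fold and 1.5-fold. The 12 falls numbered 23 with medians aligned, 6 without N2 replicate 1, 2 without N2 replicate 2 and 7 without deficient replicate 2. The 1 rise was mrps-11 (log2 0.55).

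Some genes changed in both directions within themselves. Of 2452 genes with several tested probe sets 13 had at least 1 called higher and 1 called lower, and the place of each probe set within its gene was not given. For unc-52, the basement membrane gene perlecan, 1 probe set fell (log2 -1.67, SE 0.14) and 2 rose (log2 1.49 and 1.63). Both unc-60, an actin regulator gene with more than 1 product, and eps-8 had a probe set that fell (log2 -0.57 and -0.54) beside ones that rose to log2 1.32 and 1.13. Y113G7B.15 had probe sets at log2 -2.59 and 1.07, F58E6.13 at -0.86 and 1.96, and fbxc-50 at -2.94 and 1.06. In bli-4, the procollagen protease gene counted above as lower, 3 probe sets fell (log2 -0.60 to -0.58) and 1 rose (log2 1.52). The remaining 6 were ajm-1, anc-1, mbk-2, mps-2, spp-10 and unc-44, whose called probe sets lay between log2 -0.88 and 0.94.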

How the data were processed

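RNA of whole L1 larvae was hybridised to Affymetrix worm arrays, with 2 arrays in each of 3 groups. The deposited values are linear intensities of 22548 probe sets made by the authors with dChip, per the series design and the labels; for its version and normalization, the sources used here give nothing. Array medians lay between 106.75 and 133.965, and the number of arrays limits the precision. No per-sample column was left unmapped.

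From the deposited intensities log2(value + 16) was taken, and probe sets with a mean over 6 arrays above the 30th percentile (15783) were tested. All 6 arrays entered 1 limma fit (limma 3.58.1 in R 4.3.3; lmFit, a contrast, eBayes with an intensity trend), with two-sided p-values adjusted by Benjamini-Hochberg over the probe sets tested, at 0.05. The fit was tested on simulated data. The p-values set each difference against a spread estimated within the groups of all 6 arrays and moderated across probe sets. Tables and figures used Python 3.11.15, pandas 2.3.3 and matplotlib 3.10.9.

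The platform annotation named 1 gene for 20766 probe sets, several for 887 and none for 895, and only the first were named. Names were updated by gene ID through a RefSeq table (20701 matched). A gene in a list stood for its brightest probe set.

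Named genes were elo-5 and elo-6; the 15 largest rises and falls on the log2 scale and the 8 largest in intensity, called and without overlap; up to 5 largest called members of each list, and every member of lists of up to 12; genes called in both directions. Members of a count of 5 or fewer are also named, chosen after their values were seen. The comparison, lists and rules were chosen with earlier results of these data known. Alternatives were the offset, filter, scaling, prior, arrays in the fit, replicate block, a 2-fold threshold, the mean over a gene's probe sets and leaving out each array.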

Additional observations from a re-analysis of the deposited data

How the results depend on the processing

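The comparison made 6927 calls, and between 5371 (a filter at the 50th percentile) and 7439 (medians aligned) under the other settings that kept all arrays and the same threshold. Asking for at least 2-fold left 2989 calls, 1709 higher and 1280 lower, by construction of that rule. Leaving out 1 array at a time gave 4632 to 6972 calls, 2362 to 3628 of them higher and 2233 to 3344 lower, with fewer arrays in the fit and the lone array of a group assumed to vary like the others. The replicate numbers did not pair the arrays (correlations of deviations 0.00, 0.05 and 0.08), and a fit with the replicate block gave 7044 calls, 3756 higher and 3288 lower. No called probe set of the 407 followed changed direction under a setting that was run. Values that were not called did, at 28 of the 407, and the cause was not tested. As log2 differences these were, with quantile normalization, ric-4 0.0828, bli-1 -0.0897, phy-3 -0.1273, anc-1 0.0376, unc-119 -0.011, pat-10 0.0647 and mup-2 0.021. With medians aligned they were bli-1 -0.1499, phy-3 -0.1105, unc-119 -0.1311, an unc-44 probe set -0.0224, sea-2 -0.1441, hsp-16.2 -0.0047, hsp-16.41 -0.1058, elo-2 -0.082, snb-1 -0.1345, elt-7 -0.0445 and myo-3 -0.0855. With 1 array left out the values ranged for ric-4 from -0.2003 to 0.1986, bli-1 from -0.0795 to 0.0998, phy-3 from -0.0638 to 0.1628, anc-1 from -0.2096 to 0.1119, unc-119 from -0.0557 to 0.1134, mup-2 from -0.126 to 0.0707, hsp-16.41 from -0.0773 to 0.1857, snb-1 from -0.0283 to 0.0793, elt-7 from -0.0414 to 0.2724, myo-3 from -0.1704 to 0.3194, mps-2 from -0.6033 to 0.0099, unc-64 from -0.1218 to 0.4673, mbk-2 from -0.0233 to 0.4022, lin-46 from -0.0735 to 0.0035, unc-104 from -0.9095 to 0.0351, a second unc-44 probe set from -0.1131 to 0.0086, hsp-16.21 from -0.5078 to 0.2159, hlh-1 from -0.8288 to 0.0643, hsp-12.3 from -0.3985 to 0.0465, vit-4 from -0.0597 to 0.5156, another anc-1 probe set from -0.0396 to 0.3993, a further unc-44 probe set from -0.0107 to 0.66 and lys-8 from -0.2495 to 0.0696. The 2 arrays in each group, the unstated dChip version and normalization, and whole-animal RNA limit every value here, and signal over background per probe set was not analysed here.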

Other observations

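Some gene families that had no list of their own, chosen after their values were seen, were also counted. They share members with the lists above, such as lpr-1, tsp-15 and inx-16, so their counts partly repeat those results. Of 7 lpr genes, lipocalin-related proteins of the apical matrix, all were tested, 6 fell and none was called higher (median log2 -2.06). Of 16 lips genes, lipase-related, 9 were tested, 7 fell and 1 rose (median -0.83). Of 23 claudin-like clc genes 18 were tested, 9 rose and 5 fell (median 0.64). All 5 nspe genes were tested and 4 rose (median 2.30). Most nspe probe sets are of the type whose probes may also bind other sequences. The filter used the mean over all arrays, so a dim gene could pass it through high deficient arrays alone. For example, nspe-3 read 64.02 and 92.85 against 10.93 and 6.62, and clc-32 262.2 and 227.23 against 4.58 and 9.45. Counts with no filter were not made for these families. Of 11 abu genes 8 were tested, 6 rose and 2 fell: abu-8 and abu-11 rose 5.12-fold and 4.76-fold, while abu-12 and abu-13 fell 9.69-fold and 8.57-fold. Of 24 innexin genes, which form gap junctions, 21 were tested, 7 rose and 5 fell, near the shares over all genes. The families ttr (13 rises and 13 falls of 36 tested), oac (8 and 6 of 19) and tsp (6 and 4 of 15) had no clear direction. The germ line innexin gene inx-14 read 423 and 851 in the deficient larvae and 77.1 and 63.5 in N2 (7.17-fold higher), and inx-22 rose 4.34-fold.

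Genes called at least 4-fold apart sometimes lay side by side. Among the genes tested, 317 were higher and 368 lower by that measure, and 11 runs of at least 3 tested neighbours moved the same way, 6 higher and 5 lower, holding 33 genes. The lower runs included lpr-6, lpr-5 and lpr-4 on chromosome X and grd-11, K02E2.8 and ins-35 on V. The higher runs included clc-12, clec-240 and clc-13 on V and W08E12.6, idpp-12 and W08E12.2 on IV. Probes for near-identical neighbours may not tell them apart.

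By chromosome, the share of genes called higher ran from 21.4% on III to 30.3% on V, and the share called lower from 18% on I to 24.9% on X. A gmeb-3 probe set read 1.4 and 28838 on the deficient arrays and 1 on both N2 arrays, with an adjusted p of 0.0965 in limma. It was the 1 tested probe set whose deficient replicates differed over 10-fold.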
